A study of Mus musculus with 7 samples.

Results

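Xbp1 and the genes that sense protein-folding stress in the endoplasmic reticulum (ER) were measured in white fat taken from around the epididymis of mice that overexpress XBP1. The gene set named Xbp1, the sensors Ern1 (IRE1alpha), Atf6, Atf6b and Eif2ak3 (PERK), and the proteases Mbtps1 (site-1) and Mbtps2 (site-2). A gene was included where a probe set of the array carried its symbol alone, and the probe set with the highest mean was taken. Of the 7 genes, 6 met this rule with 1 probe set each, among 19938 genes in 21789 single-symbol probe sets. The 1 probe set listed for Mbtps2 also carries the symbol of Yy2, a gene that lies within Mbtps2 in the RefSeq gene table, so Mbtps2 has no value here.

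The study compared 3 aP2-XBP1 transgenic samples with 4 wild type samples. All were from male C57Bl/6J mice aged 17 weeks and fed chow, and the labels name no other allele or agent in either group. The aP2 promoter is that of the fatty acid carrier Fabp4 and drives expression in adipocytes. It is also known to be active in macrophages, and the tissue was taken whole, so cells without the transgene contribute RNA. Whether replicates are different animals is not stated in the labels. The p-values therefore reflect variation among these arrays, and some of it may be technical.

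The unfolded protein response runs through 3 branches. IRE1alpha is an ER membrane kinase and ribonuclease that cuts an intron out of Xbp1 mRNA, and only the product of the spliced mRNA is the active transcription factor XBP1s. ATF6 and its paralog ATF6B are membrane-bound transcription factors that travel to the Golgi under stress, where the site-1 and site-2 proteases release their active fragments. PERK phosphorylates eIF2alpha and slows translation. Adipocytes secrete much protein, adiponectin among it, and the title of the series ties XBP1s in these cells to adiponectin multimers and insulin sensitivity. Splicing, cleavage and phosphorylation are not read by these arrays, which measure transcript levels only.

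Values are log2 expression, and a level is not compared between probe sets. Array medians ran from 3.99 to 4.01 in transgenic and from 4.03 to 4.04 in wild type libraries. The adipocyte markers, 8 of 8 measured, averaged 11.34 to 11.46 in transgenic and 10.63 to 11.37 in wild type libraries, so the tissue carried its labelled cell type. Wild type replicate 2 stood apart from its group. Of 8 measured epididymis markers, Serpina1f, Spink8 and Defb42 were bright in wild type replicates 1, 3 and 4 only. Serpina1f, for example, read 2.90, 3.73 and 2.83 in transgenic replicates 1, 2 and 3, and 10.70, 2.74, 10.84 and 11.50 in wild type replicates 1, 2, 3 and 4. The other markers of that list lay between 1.97 and 4.14 in every library. The 6 smooth muscle markers averaged 6.74 to 7.40 in transgenic libraries, 7.31 in wild type replicate 2 and 9.84 to 10.45 in the other wild type libraries. The 5 macrophage markers averaged 7.89 to 8.24 in transgenic libraries and spread from 7.42 to 9.23 in wild type libraries. Plasma cells are rich in Xbp1, and the 7 measured B and plasma cell markers averaged 4.11 to 4.24 in transgenic and 3.79 to 4.44 in wild type libraries. Endothelial markers averaged 7.97 to 8.10 in transgenic and 7.69 to 8.00 in wild type libraries, T cell markers 3.19 to 3.40 and 3.08 to 3.50, and fibroblast markers 10.16 to 10.32 and 10.04 to 10.82. The part of these transcripts in the differences below was not tested beyond the values given beside each result. In bulk tissue, fewer cells of a type and less RNA per cell cannot be told apart.

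**Figure D1:**
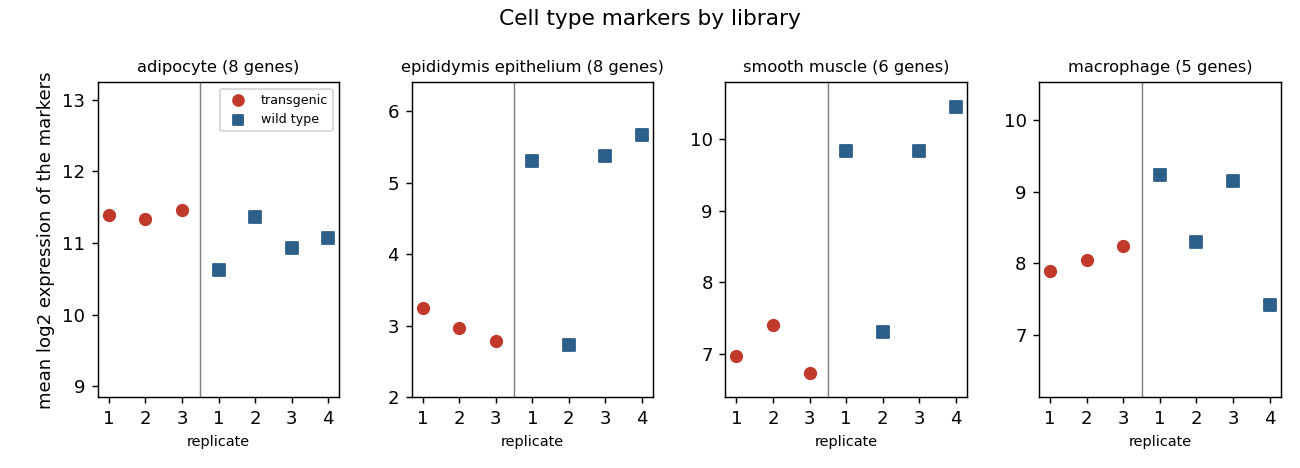
Mean log2 expression of the measured markers of each cell type (y axis) in each library (x axis, replicate number), with transgenic libraries as circles left of the line and wild type libraries as squares right of it. Wild type replicate 2 sits with the transgenic libraries for epididymis and smooth muscle markers, while wild type replicates 1, 3 and 4 lie above them.

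Xbp1, the transcription factor that the transgene encodes, was higher in every transgenic library than in every wild type library. Its probe set (10374035) read 9.76, 9.99 and 9.66 in transgenic replicates 1, 2 and 3, against 8.90, 9.07, 8.94 and 9.19 in wild type replicates 1, 2, 3 and 4. The lowest transgenic library lay above the highest wild type library, and transgenic replicate 2 was the highest of all. The means were 9.80 ± 0.17 (SD, n = 3) in transgenic fat and 9.03 ± 0.13 (SD, n = 4) in wild type fat, a 1.71-fold difference (log2 difference 0.77, 95% limma interval 0.52 to 1.03, not adjusted for the number of probe sets). The adjusted p was 0.622 with limma over all 21789 probe sets, so Xbp1 did not pass a threshold of 0.05, and neither did any other probe set (0% called). An exact two-sided permutation test of this single value gave p = 0.0286, the smallest that 35 splits of 7 libraries allow. Groups did not overlap, with transgenic fat higher, for 3.38% of all probe sets.

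The platform table pairs this probe set with 2 RefSeq mRNAs of Xbp1. The deposited value is a single summary, so it cannot separate the transgene from the endogenous gene or spliced from unspliced mRNA. Adipocyte markers had higher transgenic means for 8 of 8 genes, against 53.6% of all probe sets. The groups did not overlap for 3 of them, against 3.38% of all probe sets (Pnpla2, Plin1 and Cidec, which were chosen after their values were seen). The part of the adipocyte markers in the Xbp1 difference was not tested. Wild type replicate 2 had an adipocyte marker mean of 11.37, within the transgenic range, and an Xbp1 level of 9.07, below it. With only wild type replicate 2 for comparison the Xbp1 difference was 0.73, a value given with no test because that arm is 1 library. Fabp4, whose promoter drives the transgene, read 12.24, 12.32 and 12.34 in transgenic replicates 1, 2 and 3, and 11.77, 12.31, 12.09 and 12.17 in wild type replicates 1, 2, 3 and 4. Its difference was 0.22 (SE 0.13, limma adjusted p = 0.668), with wild type replicate 2 inside the transgenic range.

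Ern1 encodes IRE1alpha, the enzyme that splices Xbp1 mRNA, and its transcript differed in the opposite direction. The probe set (10392183) read 5.72, 5.87 and 5.70 in transgenic replicates 1, 2 and 3, against 6.14, 5.97, 6.07 and 5.97 in wild type replicates 1, 2, 3 and 4. Every transgenic library lay below every wild type library, although the gap between the nearest libraries was small. Means were 5.76 ± 0.09 (SD, n = 3) in transgenic fat and 6.04 ± 0.09 (SD, n = 4) in wild type fat, a log2 difference of -0.27 (95% limma interval -0.43 to -0.11). This did not pass (limma adjusted p = 0.622), and the exact permutation p was again 0.0286. Groups did not overlap in this direction for 2.44% of all probe sets.

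Macrophage markers were uneven among the wild type libraries in which Ern1 was read. They averaged 9.23 and 9.15 in wild type replicates 1 and 3, where Ern1 was highest, and 7.42 in wild type replicate 4, the lowest of any library. Ern1 in wild type replicate 4 was 5.97, and it was 5.70 to 5.87 in transgenic libraries. The part of macrophage RNA in the Ern1 difference was not tested. With only wild type replicate 2 for comparison the Ern1 difference was -0.20, again from 1 control library. Ern2, the IRE1 paralog known from gut and airway epithelium, was dim, with 3.10, 3.10 and 3.11 in transgenic replicates 1, 2 and 3 and 3.06 to 3.12 in wild type libraries.

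The windows of 300 bases around the RefSeq start sites of Xbp1 and Ern1 are shown because these are the members whose groups did not overlap, in opposite directions. The Xbp1 window is chr11:5520391-5520690 (GRCm38.p6, plus strand) and the Ern1 window is chr11:106487747-106488046 (GRCm38.p6, minus strand). Each runs 5′ to 3′ from 250 bases before the start site to 50 bases after it, and capitals mark the core ACGT found in sites that XBP1 and ATF6 bind.
Xbp1: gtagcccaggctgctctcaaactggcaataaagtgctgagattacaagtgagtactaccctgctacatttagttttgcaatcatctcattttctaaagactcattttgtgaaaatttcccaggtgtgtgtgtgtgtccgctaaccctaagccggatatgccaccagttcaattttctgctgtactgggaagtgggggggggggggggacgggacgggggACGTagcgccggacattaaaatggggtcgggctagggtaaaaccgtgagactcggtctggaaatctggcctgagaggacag
Ern1: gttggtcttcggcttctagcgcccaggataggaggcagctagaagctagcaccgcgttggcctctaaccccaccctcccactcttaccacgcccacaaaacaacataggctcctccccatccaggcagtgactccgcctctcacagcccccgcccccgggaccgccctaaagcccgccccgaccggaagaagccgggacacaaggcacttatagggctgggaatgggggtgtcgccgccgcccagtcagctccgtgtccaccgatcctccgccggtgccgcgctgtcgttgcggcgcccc
Windows were found for 6 of the 7 genes named, all but Atf6. The search covered both strands for the ER stress response element ERSE (CCAAT, then 9 bases of any kind, then CCACG), ERSE-II (ATTGG, then 1 base of any kind, then CCACG), the unfolded protein response element UPRE (TGACGTGG and TGACGTGA), the cAMP response element CRE (TGACGTCA) and the core ACGT, which also lies inside every UPRE and CRE. The core was present in the windows of 2 members, Xbp1 and Atf6b, and in 30.9% of all 32851 windows. None of the 4 longer motifs was in these 6 windows. In all windows ERSE was present in 0.119%, ERSE-II in 0.0365%, UPRE in 1.12% and CRE in 1.79%. An absent match says only that these letters are not in that window, and the transgene is driven by another promoter.

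Of the ATF6 pair, Atf6b had the larger mean difference, and Atf6 varied more among transgenic libraries (SD 0.31, against 0.18 for Atf6b) but less among wild type libraries (SD 0.09, against 0.14). Atf6b (10444439) read 6.60, 6.45 and 6.23 in transgenic replicates 1, 2 and 3, against 6.23, 5.98, 6.23 and 6.00 in wild type replicates 1, 2, 3 and 4. Transgenic replicate 3 equalled wild type replicates 1 and 3, so the groups touch. Means were 6.43 ± 0.18 (SD, n = 3) in transgenic fat and 6.11 ± 0.14 (SD, n = 4) in wild type fat, a difference of 0.31 (95% limma interval 0.04 to 0.58, adjusted p = 0.622, exact permutation p = 0.0857). Atf6 (10359982) read 7.15, 7.73 and 7.24 in transgenic replicates 1, 2 and 3, against 7.17, 7.17, 7.17 and 6.98 in wild type replicates 1, 2, 3 and 4. Only transgenic replicate 2 stood clearly above wild type, and transgenic replicate 1 lay below 3 wild type libraries. The Atf6 difference was 0.25 (95% limma interval -0.10 to 0.60, adjusted p = 0.666, exact permutation p = 0.114), and it was 0.07 without transgenic replicate 2.

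Mbtps1 encodes the site-1 protease, which makes the first cut in ATF6 and in the sterol-regulated SREBP factors. Its probe set (10582094) read 8.16, 8.04 and 8.17 in transgenic replicates 1, 2 and 3, against 8.26, 8.26, 8.17 and 8.17 in wild type replicates 1, 2, 3 and 4. The groups met at 8.17, and the difference was -0.09 (95% limma interval -0.21 to 0.03, adjusted p = 0.663, exact permutation p = 0.143). The libraries of both genotypes lay within a narrow range. Without transgenic replicate 2, where the level was lowest, the difference was -0.05.

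Eif2ak3 encodes PERK. The probe set (10538939) read 6.65, 6.98 and 6.65 in transgenic replicates 1, 2 and 3, against 6.45, 6.65, 6.59 and 6.54 in wild type replicates 1, 2, 3 and 4. Transgenic replicates 1 and 3 equalled wild type replicate 2, and transgenic replicate 2 was above all other libraries. Means were 6.76 ± 0.20 (SD, n = 3) in transgenic fat and 6.56 ± 0.08 (SD, n = 4) in wild type fat, a difference of 0.20 (95% limma interval -0.04 to 0.44, adjusted p = 0.639, exact permutation p = 0.114). It was 0.09 without transgenic replicate 2 and 0.11 with only wild type replicate 2 for comparison.

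**Figure D2:**
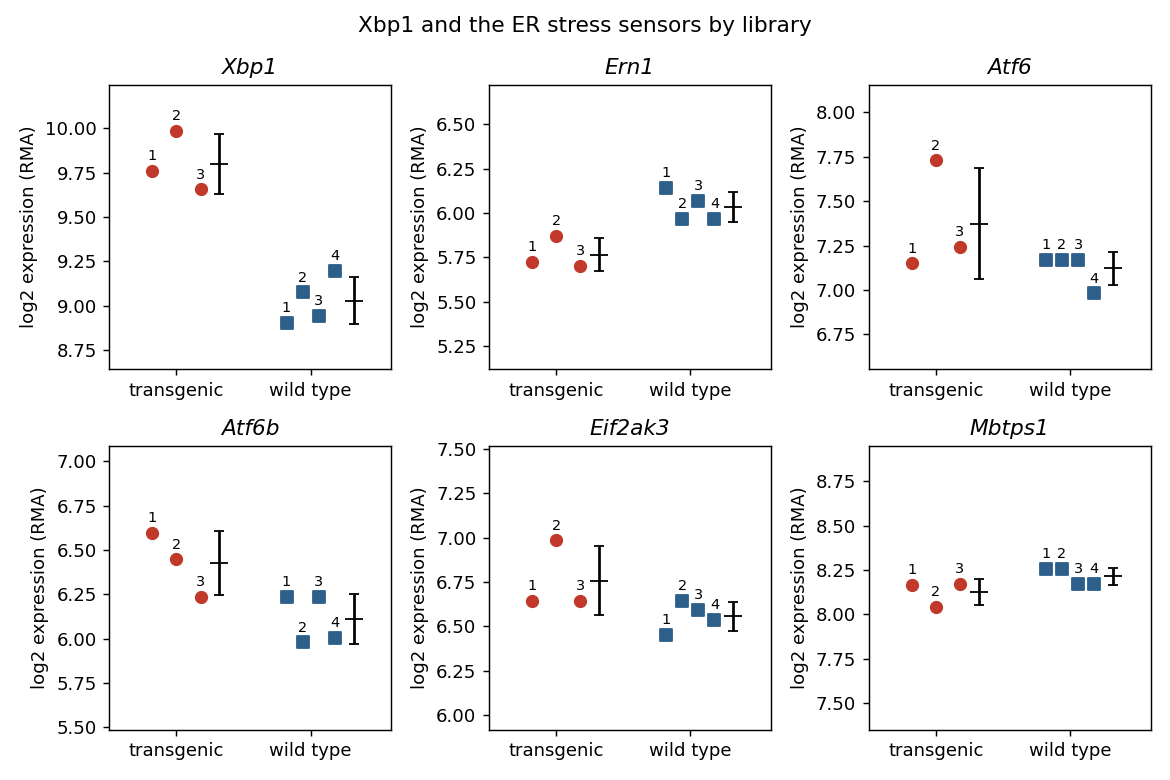
Log2 expression (y axis, the same span of log2 units in every panel) of the 6 measured genes in transgenic libraries (circles) and wild type libraries (squares), each point numbered by its replicate, with the mean and SD as a bar to the right of each group. The groups are separate for Xbp1, where transgenic libraries are higher, and for Ern1, where they are lower.

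Among the 6 genes, 4 had a higher and 2 a lower mean in transgenic fat, against 53.6% higher and 46.4% lower of all probe sets. Groups did not overlap for 1 gene in each direction (3.38% of all probe sets higher, 2.44% lower). At an unadjusted limma p under 0.05 there were 2 higher, Xbp1 and Atf6b (4.82% of all probe sets were called higher at that p), and 1 lower, Ern1 (3.12%). Under 17 other settings, from other normalizations to leaving out each library, all 6 differences kept their sign. Settings that change only the tested probe sets, or how their variance is pooled, return the same difference by design. Where groups do not overlap, as for Xbp1 and Ern1, leaving out libraries cannot change the sign either. Transgenic replicate 2 had the highest value of the 3 transgenic libraries for 4 of the 6 genes, against 21.4% of all genes, and Ern1 was 1 of the 4. A tie for the highest value was not counted, which lowers the share over all genes. Identical values in several libraries, as for Atf6 in wild type replicates 1, 2 and 3, occurred in 69.5% of all probe sets (equal to 6 decimals), and they narrow the spread within groups.

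**Figure D3:**
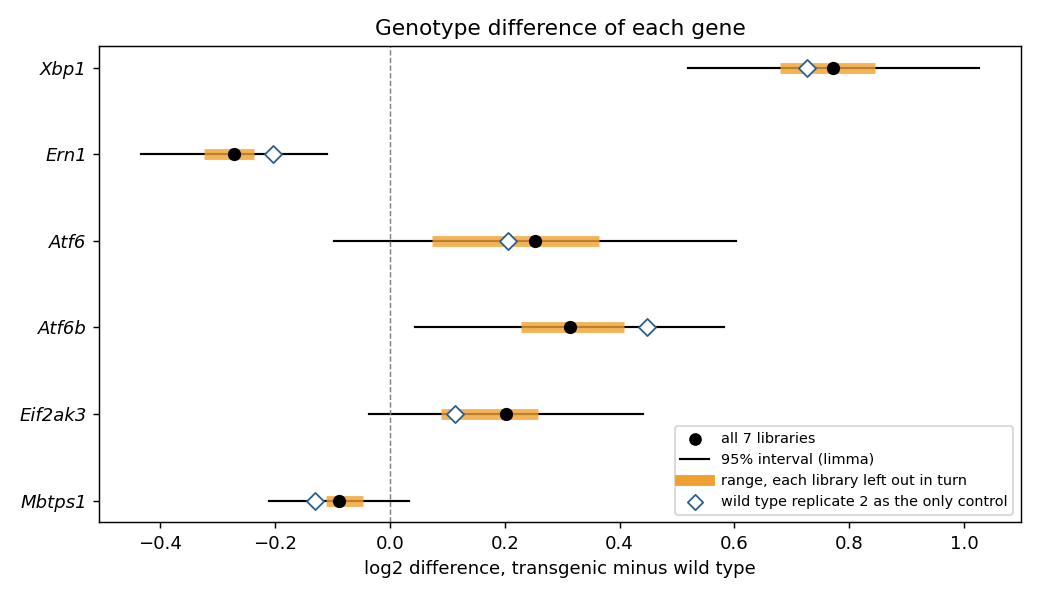
Log2 difference, transgenic minus wild type (x axis), of each gene, with the 95% limma interval, the range when each library was left out in turn, and the value with only wild type replicate 2 for comparison. Xbp1 is the one gene near 0.77, Ern1 and Mbtps1 lie below 0, and the left-out range of Atf6 comes down to 0.07.

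Genes of the wider pathway were described as 8 lists, from regulators and protease substrates to known targets. Of these genes 0 passed adjusted over all probe sets. The lists were chosen with earlier results of these data known, so their counts are a description. Regulators of the sensors and of Xbp1 splicing had 19 of 24 measured genes with a higher mean (53.7% of all genes) and 5 with a lower one, with a median difference of 0.17, while the median of all probe sets was 0.01. The median was 0.10 without transgenic replicate 2. Groups did not overlap for 7 of the 24, all higher in transgenic fat, against 3.55% of all genes. The regulators share Pdia6, Dnajc3, Dnajb9 and Syvn1 with the XBP1 targets described below, and Hspa5, Dnajc3, Sel1l and Hsp90b1 with the ATF6 targets. Of the regulators whose groups did not overlap, only Ddrgk1 and Sil1 are in neither target list. Adipocyte markers also had higher means (8 of 8, against 53.7% of all genes), and their part in the regulator counts was not tested. Pdia6, a disulfide isomerase known to limit IRE1 activity, read 10.47, 10.85 and 10.08 in transgenic replicates 1, 2 and 3, against 9.50, 9.41, 9.56 and 9.29 in wild type replicates 1, 2, 3 and 4 (log2 difference 1.03, SE 0.18). Every transgenic library was above every wild type library. Hspa5, the chaperone BiP that binds the sensors in unstressed cells, read 10.62, 11.06 and 10.55 in transgenic replicates 1, 2 and 3, against 10.07, 10.07, 10.15 and 10.09 in wild type replicates 1, 2, 3 and 4 (difference 0.65, SE 0.12). The wild type libraries lay close together, and all transgenic ones were above them. Dnajc3, known as the PERK inhibitor p58IPK, differed by 0.75 (SE 0.15), and its groups did not overlap either. Dnajb9, a co-chaperone that returns IRE1 to BiP, and Rtcb, the ligase that rejoins cut Xbp1 mRNA, were chosen after their values were seen. Dnajb9 read 7.85, 8.74 and 7.76 in transgenic replicates 1, 2 and 3, against 5.97, 6.69, 6.61 and 6.94 in wild type replicates 1, 2, 3 and 4. It differed by 1.57 (SE 0.32) and Rtcb by -0.02 (SE 0.05).

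Of 7 substrates and partners of the proteases other than ATF6, 5 had a higher mean (53.7% of all genes), with a median difference of 0.33. The median was 0.14 with only wild type replicate 2 for comparison. Spring1, a Golgi protein that activates the site-1 protease, read 5.47, 5.49 and 5.50 in transgenic replicates 1, 2 and 3, against 5.18, 5.29, 5.13 and 5.34 in wild type replicates 1, 2, 3 and 4 (difference 0.25, SE 0.06). Its groups did not overlap. Srebf1, the lipogenic SREBP, differed by 0.58 (SE 0.16) and Insig1, which retains SREBP in the ER, by 0.92 (SE 0.28). In this list the values of Insig1 overlapped between genotypes. Of the 5 other membrane-bound bZIP factors cut by these proteases, 3 had a higher mean (53.7% of all genes), led by Creb3l2 (0.28, SE 0.13). Creb3 (-0.09) and Creb3l4 (-0.17) were lower. The median was 0.03.

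The PERK branch was close to even. Of 10 measured genes 5 had a higher mean (53.7% of all genes) and 5 a lower one, with a median of -0.01. There were 0 genes whose groups did not overlap, against 3.38% of all probe sets higher and 2.44% lower. At those shares a list this short may well hold none. Ppp1r15b and Ppp1r15a, the regulatory subunits that direct phosphatase to eIF2alpha, differed by 0.11 (SE 0.06) and -0.22 (SE 0.12). Atf4, the factor translated when eIF2alpha is phosphorylated, differed by -0.10 (SE 0.12). Of the 4 DNA-binding partners of ATF6, 3 had a higher mean (53.7% of all genes), with a median of 0.02. The NF-Y subunits Nfyb, Nfyc and Nfya differed by -0.14, 0.04 and 0.03.

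Known targets of the transcription factors were described in the same way, from lists chosen with earlier results of these data known. Their counts are therefore a description. Of 21 measured genes known as XBP1 targets all 21 had means above wild type, against 53.7% of all genes, and the groups did not overlap for 12, against 3.55% of all genes. The median difference was 0.40, and 0.26 without transgenic replicate 2. Derl1, a channel component of ER-associated degradation, read 8.74, 8.91 and 8.73 in transgenic replicates 1, 2 and 3, against 8.08, 8.39, 8.23 and 8.20 in wild type replicates 1, 2, 3 and 4 (difference 0.57, SE 0.09), and Pdia6 and Dnajc3 are in this list too. All 10 genes known as ATF6 targets had a higher mean, with a median of 0.50, and the groups did not overlap for 5 (3.55% of all genes). That list includes Xbp1 itself and shares Dnajc3, Hyou1 and Pdia4 with the XBP1 list. Adipocyte markers also had higher transgenic means, 8 of 8 against 53.7% of all genes. They averaged 11.39, 11.34 and 11.46 in transgenic replicates 1, 2 and 3, and 11.37 in wild type replicate 2. The XBP1 targets averaged 8.34, 8.70 and 8.25 in those transgenic libraries, and 7.93 in wild type replicate 2. The part of adipocyte RNA in the target lists was not tested. With only wild type replicate 2 for comparison, the medians of the XBP1 and ATF6 lists were 0.39 and 0.53, with 21 of 21 and 10 of 10 genes higher.

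**Figure D4:**
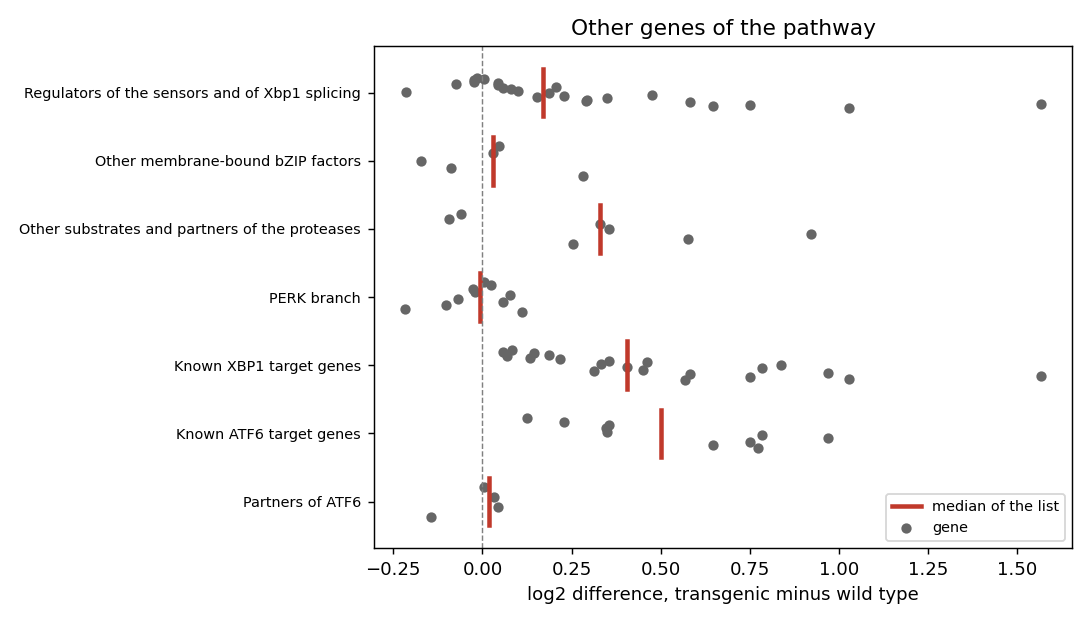
Log2 difference, transgenic minus wild type (x axis), of every measured gene (points) in 7 of the lists (rows), with the median of each list as a bar. The medians of the XBP1 and ATF6 target lists are 0.40 and 0.50, and that of the PERK branch is -0.01.

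The transgenic libraries kept the order that they had for Xbp1 across most of these targets. Xbp1 was highest in transgenic replicate 2, next in replicate 1 and lowest in replicate 3. Transgenic replicate 2 was the highest transgenic library for 20 of the 21 XBP1 targets, against 21.4% of all genes, Sec31a being the exception. The full order was the same for 13 of the 21 (61.9%), against 9.04% of all genes. It was not particular to XBP1 targets. The ATF6 targets, a list that includes Xbp1 itself, had it for 9 of 10 genes (90%). Tied transgenic libraries cannot match the order, which lowers the share over all genes, and 69.5% of all probe sets held a tie among the 7 libraries. Smooth muscle markers ran in that order too, 5 of 6 genes (83.3%), with means of 6.98, 7.40 and 6.74 in transgenic replicates 1, 2 and 3. Their part in the order was not tested. The order describes 3 libraries.

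**Figure D5:**
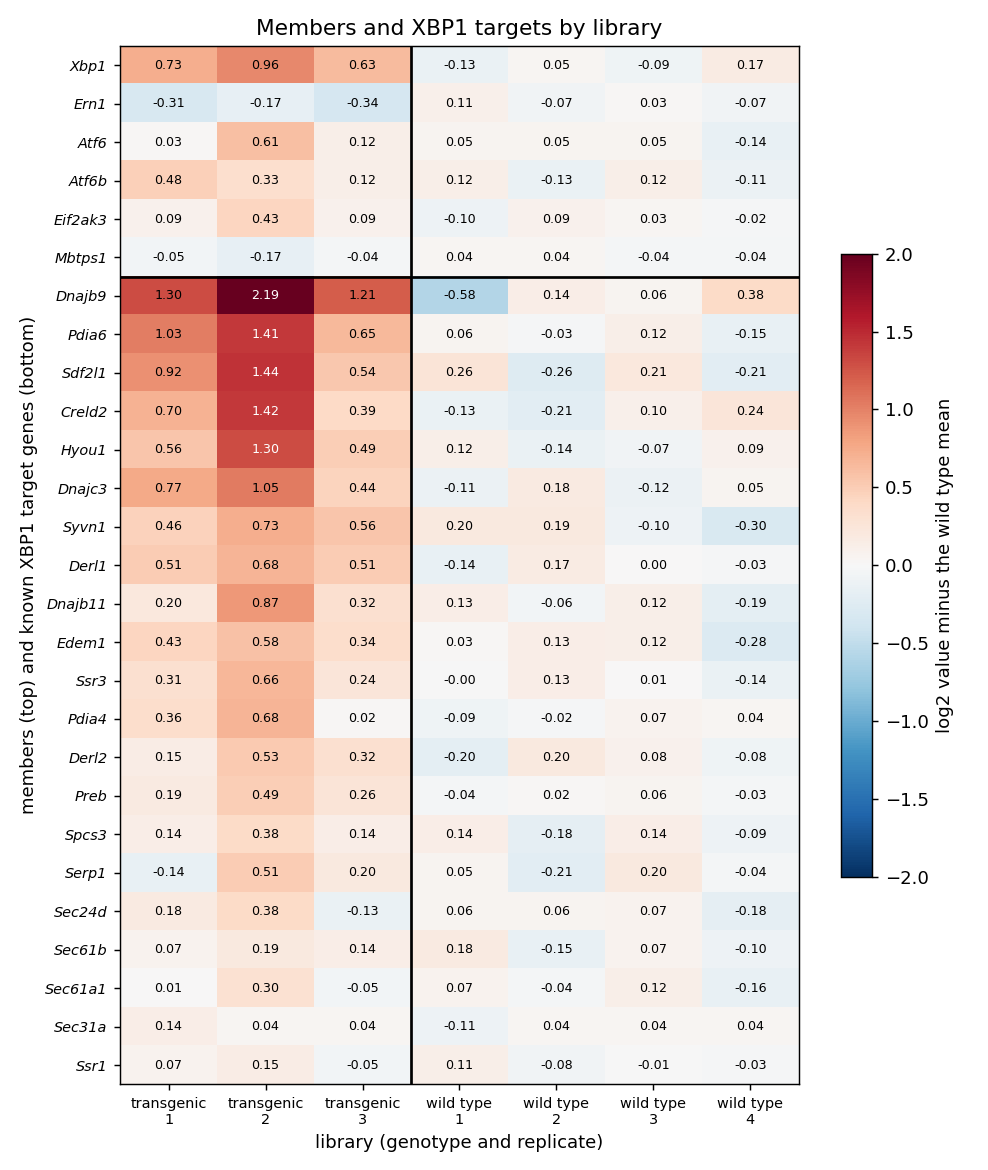
Log2 value minus the wild type mean (colour and printed number) for the 6 measured genes (upper rows) and 21 known XBP1 targets (lower rows, sorted by difference) in 3 transgenic libraries (left) and 4 wild type libraries (right). Transgenic replicate 2 has the strongest colour in most target rows and also in those of Xbp1, Atf6 and Eif2ak3.

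The genes most like Xbp1 across the 7 libraries were sought by the root mean square difference between log2 values centred on each gene's mean. Of 17161 genes compared, the 5 closest were Dnajc3 (0.104), Hspa13 (0.112), Hspa5 (0.130), Kyat3 (0.139) and Timd4 (0.140). A gene that does not vary would score 0.402, and the median gene scored 0.412. Hspa13, a member of the Hsp70 family in microsomes, read 7.91, 8.39 and 7.77 in transgenic replicates 1, 2 and 3, against 7.29, 7.46, 7.27 and 7.56 in wild type replicates 1, 2, 3 and 4. Like Xbp1 it was highest in transgenic replicate 2, and within wild type it was highest in replicate 4. These 5 genes were picked for values close to those of Xbp1, so a like order and a like genotype difference follow from that choice. Kyat3, a kynurenine aminotransferase, differed by 0.70 (SE 0.18). Timd4, a phosphatidylserine receptor of tissue macrophages, differed by 0.75 (SE 0.17) at a low level, 5.19 ± 0.21 (SD, n = 3) in transgenic and 4.44 ± 0.27 (SD, n = 4) in wild type libraries.

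The ERSE sites of Dnajc3, Hspa5 and Pdia6 are shown because these genes have the smallest p among the regulators, and Dnajc3 and Hspa5 are also among the 5 genes most like Xbp1. Capitals mark the fixed letters of the element, and each site is written 5′ to 3′ on the strand of its gene, which is the plus strand for all. They come from the windows chr14:118937682-118937981, chr2:34771840-34772139 and chr12:17266339-17266638 (GRCm38.p6, RefSeq).
Dnajc3: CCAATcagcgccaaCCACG
Hspa5: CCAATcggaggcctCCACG
Pdia6: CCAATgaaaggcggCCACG
ERSE matches were present in 4 of the 18 XBP1 targets with a window (Dnajc3, Pdia6, Syvn1 and Creld2) and in 4 of the 8 ATF6 targets with one (Hspa5, Hsp90b1, Calr and Dnajc3). These elements are part of how such genes came to be known as targets, so the counts are a description. None of the 6 windows of Xbp1, its sensors and the proteases held one.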

How the data were processed

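RNA from 7 samples was hybridised to 1-colour Affymetrix Mouse Gene 1.0 ST arrays, named from the platform table. The deposited values are log2 expression made by the authors with RMA, per the submitters' processing notes. RMA corrects background, normalizes arrays by quantiles and summarises probe sets, so a shift of all genes would not show. The version of RMA was not given in the sources used here. Of 35556 probe sets, 21789 had 1 gene symbol and were tested, 1621 had several and 12146 none. All 6 measured genes matched RefSeq by Entrez identifier. The number of arrays limits the precision.

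Differences, transgenic minus wild type, were fitted with limma 3.58.1 in R 4.3.3 (two-sided, Benjamini-Hochberg over all tested probe sets, threshold 0.05), with the fit tested on simulated data. Exact permutation tests, two-sided, were run for 7 genes. The genes, lists and tests were chosen with earlier results of these data known. Named genes were the 7 listed, Fabp4, the 5 most like Xbp1 (leaving out predicted genes, small RNAs and chemosensory receptors) and up to 3 of smallest p per list. Bax, Eif2s1 and Sec61g were listed without a single-symbol probe set. Figures used Python 3.11.15, pandas 2.3.3 and matplotlib 3.10.9.

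The labels do not say that replicate numbers pair the samples, and no pairing was used. The correlations of same-numbered deviations from the group means were -0.14, -0.09 and 0.06 for replicates 1, 2 and 3. They were not compared with those of other pairings, so they cannot show whether same-numbered samples shared a litter or day.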

Additional observations from a re-analysis of the deposited data

Results flagged for a closer look

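In 7 of 31 named genes tested, 1 wild type library was flagged for its gap to the nearest other wild type library. The gap, as a share of the range of the 4 wild type libraries, had to exceed the critical value of Dixon's outlier test. The flagged shares ran from 0.889 to 1.0, and smaller shares were not flagged even where they were most of the range. At that critical value chance flags about 1 in 20 groups of untied values. That rate does not hold where values are tied, as in Atf6 and Nfyc, whose other 3 values were identical. The gap was only a few thousandths of a log2 unit for Nfyc. As a share of the range it was 1.0 for Atf6, whose wild type replicate 4 read 6.98 while the others were identical at 7.17, and 1.0 for Nfyc, where wild type replicate 3 read 6.56 and the others 6.57. It was 0.960 for Creb3l2, lower in wild type replicate 1 (6.18, others 6.54 to 6.55), and 0.941 for Creb3l4, higher in wild type replicate 4 (3.35, others 2.56 to 2.61). For Serpina1f, Spink8 and Defb42 it was 0.908, 0.903 and 0.889, all from the low level in wild type replicate 2 (2.74, 2.45 and 2.51). Serpina1f, Spink8 and Defb42 were entered with their values known, so their flags were fixed in advance and cannot be set against the chance rate. Apart from these and Fabp4, the cell type markers were not tested in this way.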

How the results depend on the processing

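All 6 differences kept their sign in each of 17 settings, and 0 reached an adjusted p of 0.05. For Xbp1 and Ern1, whose groups do not overlap, the sign could not change when libraries were left out. With wild type replicate 2 alone as control, the spread came from the transgenic libraries and that library was assumed to vary like them. Leaving out each library in turn gave 0.68 to 0.84 for Xbp1, -0.32 to -0.24 for Ern1, 0.07 to 0.36 for Atf6, 0.23 to 0.41 for Atf6b, 0.09 to 0.26 for Eif2ak3 and -0.11 to -0.05 for Mbtps1, with the smallest values of Atf6, Eif2ak3 and Mbtps1 without transgenic replicate 2. The adjusted p for Xbp1 ran from 0.109 to 0.817. Shifting arrays to a common median gave -0.05 for Mbtps1.

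With a replicate block the Xbp1 difference was 0.83 and that of Ern1 was -0.29, and the block changed no call. Wild type replicate 4 has no transgenic partner, and the block gave the same 6 differences as leaving that library out. These settings are therefore not separate checks of the differences. The number of probe sets called over the table was 0 in the main setting, also at an adjusted p of 0.1, and 0 in the other settings except the following. It ran from 0 to 91 when each library was left out, the 91 (7 higher, 84 lower) being without wild type replicate 2. It was 3 with an epididymal marker covariate, all lower (Svs6, Sva and Svs1). That covariate was the mean of Serpina1f, Spink8 and Defb42 alone, picked from the epididymis markers with their values known. The cause of the calls in these settings was not tested. At an unadjusted p under 0.05 limma gave 1050 higher and 679 lower. The mean over several probe sets of a gene could not be run, since each gene had 1, and no setting gave a value for Mbtps2.

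Counts of target and regulator genes with a higher mean, checked in settings chosen after seeing the data, were 20 of 21, 10 of 10 and 20 of 24 without transgenic replicate 2, and 21, 10 and 17 against wild type replicate 2 alone, for XBP1 targets, ATF6 targets and regulators in that order.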
